A study of Mus musculus with 18 samples.

Results

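The interleukin-1 (IL-1) family genes listed here are the cytokines Il1a, Il1b, Il18, Il33 and Il1f9, the receptor antagonist Il1rn, and the receptors Il1r1, Il1r2 and Il1rl1. Il1f9 is the symbol used by the array annotation for the gene now also called Il36g, which encodes IL-36 gamma. All probe sets that the annotation of the array assigned to these symbols were taken, whatever their signal, which gave 11 of the 45037 probe sets on the array, for 8 of the 9 genes. Il1rn had 3 probe sets, Il1r1 had 2 and each of the other 6 genes had 1. No probe set carried the symbol Il1rl1, alone or among several symbols, so the IL-33 receptor was not analysed here. Where a gene had several probe sets, the brightest over all arrays is given first and called the lead probe set.

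The 18 Affymetrix mouse arrays comprised 6 groups of 3. Dermis, epidermis and unseparated whole skin were each taken from wild-type controls and from mice carrying the K14NICDER transgene. This transgene encodes a Notch intracellular domain joined to a hormone-binding domain and is driven by the keratin 14 promoter, so it is directed to basal keratinocytes and is switched on by 4-hydroxytamoxifen (4OHT). All mice were female, of a C57Bl6xCBA F1 background and 7 weeks old when treatment began. Wild-type and transgenic mice alike received 4OHT for 14 days, so the comparisons hold the drug constant and contain no untreated skin. The labels do not say how many animals gave each sample or whether the samples of a group came from separate animals, and p-values therefore reflect the spread among these arrays alone, which may be technical.

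IL-1 alpha and IL-1 beta bind the receptor encoded by Il1r1, which recruits the accessory protein Il1rap and signals through Myd88 to NF-kB, while Il1rn competes for the same receptor without signalling and Il1r2 is a decoy that binds IL-1 but has no signalling domain. Keratinocytes hold stores of IL-1 alpha and IL-33 that are released when cells are damaged, and they make IL-36 cytokines, which act through a related receptor, Il1rl2. IL-1 beta and IL-18 are made as precursors that caspase-1 cleaves in inflammasomes, and IL-1 signalling in skin induces chemokines that draw neutrophils.

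The genes lie in a few clusters of the mouse genome. In the RefSeq table, Il1r2 is followed by Il1r1, Il1rl2, Il1rl1 and Il18r1 on chromosome 1. Il1f9 lies between Il1f8 and Il1f6 on chromosome 2, where Il1rn follows Il1f10 and Il1a stands next to Il1b. Il18 is on chromosome 9 and Il33 on chromosome 19. The promoter windows below, from RefSeq (build GRCm38.p6), run from 250 bases before to 50 bases after an annotated transcription start. They are shown for the 3 genes that differed between genotypes in epidermis, with both annotated starts of Il33, and for the first start of Il1rn, the only window of the family in which the letters bound by RBPJ, the DNA-binding partner of Notch, were found. The windows lie at chr2:24186226-24186525 (plus strand) for Il1f9, at chr19:29924863-29925162 and chr19:29945540-29945839 (plus strand) for the 2 starts of Il33, at chr1:40085843-40086142 (plus strand) for Il1r2, and at chr2:24336610-24336909 (plus strand) for Il1rn. Capitals mark matches to the motifs searched, and all other bases are in lower case.
Il1f9: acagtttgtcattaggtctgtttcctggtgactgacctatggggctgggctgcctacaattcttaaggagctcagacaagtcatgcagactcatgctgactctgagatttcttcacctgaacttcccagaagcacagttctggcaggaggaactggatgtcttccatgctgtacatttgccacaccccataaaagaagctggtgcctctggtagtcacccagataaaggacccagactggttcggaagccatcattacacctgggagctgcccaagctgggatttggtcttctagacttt
Il33, first start: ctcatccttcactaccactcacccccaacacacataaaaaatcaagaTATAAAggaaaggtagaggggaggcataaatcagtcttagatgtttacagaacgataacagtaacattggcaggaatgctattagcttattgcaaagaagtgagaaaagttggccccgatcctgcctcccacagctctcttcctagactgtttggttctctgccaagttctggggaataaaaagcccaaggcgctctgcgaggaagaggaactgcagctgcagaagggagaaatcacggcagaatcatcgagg
Il33, second start: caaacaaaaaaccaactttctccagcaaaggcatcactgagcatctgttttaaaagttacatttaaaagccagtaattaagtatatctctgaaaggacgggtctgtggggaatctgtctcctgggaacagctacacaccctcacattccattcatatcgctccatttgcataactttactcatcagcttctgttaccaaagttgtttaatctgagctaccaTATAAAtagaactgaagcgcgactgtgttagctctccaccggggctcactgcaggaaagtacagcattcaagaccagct
Il1r2: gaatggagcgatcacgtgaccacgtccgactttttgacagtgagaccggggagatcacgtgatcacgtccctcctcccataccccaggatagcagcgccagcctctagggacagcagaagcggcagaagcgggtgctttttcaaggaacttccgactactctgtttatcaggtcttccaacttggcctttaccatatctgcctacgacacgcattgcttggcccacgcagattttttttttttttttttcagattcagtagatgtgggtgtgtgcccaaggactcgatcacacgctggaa
Il1rn, first start: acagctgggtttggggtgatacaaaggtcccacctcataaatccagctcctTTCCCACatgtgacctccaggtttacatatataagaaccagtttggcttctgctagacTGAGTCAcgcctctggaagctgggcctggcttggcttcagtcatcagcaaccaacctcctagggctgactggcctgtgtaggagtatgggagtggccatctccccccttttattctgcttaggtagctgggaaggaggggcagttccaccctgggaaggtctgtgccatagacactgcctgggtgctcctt

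The motifs searched on both strands were GTGGGAA for RBPJ, TGANTCA for AP-1 and a pattern for NF-kB. TATAAA was searched on the sense strand, and none of the matches overlapped another. The NF-kB pattern allowed any base at some positions and was not the consensus of NF-kB. A match to it, called the NF-kB letters below, need not be a consensus site. All 9 genes had a window in the table, 14 windows in all. The RBPJ letters occurred in 1 of these 14 windows and in 6.38% of the 32851 promoter windows of the table, the AP-1 letters in 2 of 14 and 7.81%, the NF-kB letters in 2 of 14 and 4.79%, and the TATAAA letters in 4 of 14 and 8.32%. In the first window of Il1rn the RBPJ letters were on the antisense strand with their first base at −199 from the start, and the AP-1 letters began at −141. The NF-kB letters were in the other 2 windows of Il1rn, which overlap each other and share the match. TATAAA stood at −29 from the second start of Il33, and the windows of Il1f9 and Il1r2 printed above held none of the 4 motifs. These matches describe letters only and were not tested for binding.

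Values are log2 MAS5 signals, in which a step of 1 is a doubling of signal, and a difference is the transgenic mean minus the wild-type mean with its standard error (SE). A probe set is said to have risen or fallen where its Benjamini-Hochberg adjusted p in limma, taken over all 45037 probe sets of the comparison, was under 0.05. Signal at the low end of the MAS5 scale is spread widely, so large differences of dim probe sets are imprecise, and levels are compared only within a probe set. Of the 11 probe sets, only the second one of Il1r1 (1459777_at) had a mean below a log2 signal of 3.15, the 30th percentile over the array, and its signal ranged from −4.62 to 1.47. It was called in none of the 6 comparisons, and its genotype differences lay between −1.47 and −0.48 in the 3 tissues.

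The arrays differed in their spread: the median standard deviation within a group over all probe sets was 0.682 in dermis, 0.635 in epidermis and 0.321 in whole skin. Each genotype comparison was therefore fitted on the 6 arrays of its own tissue. The median of all probe sets was lower in transgenic epidermis by a log2 difference of −0.30, and it moved to −0.03 after quantile normalization. Differences in epidermis are for this reason also given relative to that median. Notch1 and 3 known Notch targets, Hes1, Hey1 and Nrarp, were looked at after the other values had been seen, each at its brightest probe set. None of the 4 differed between genotypes in any tissue (lowest limma adjusted p 0.211, Nrarp in whole skin, log2 difference 0.37). The second probe sets of Notch1 and Nrarp were not looked at. Whether the Notch1 probe set looked at lies within the transgene was not determined, so it does not check the genotype labels.

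In epidermis, the comparison asked how the family's expression differed between the genotypes in the layer that carries the transgene. Il33 and Il1r2 fell about 4-fold and Il1f9 rose more than 2-fold, while Il1a, Il1b, Il18, Il1rn and Il1r1 did not pass the test. Of the 8 lead probe sets, 1 was called higher and 2 lower, where 1.07% of all probe sets were called, 0.651% higher and 0.42% lower. The median of the 8 was 0.55 against −0.30 for all probe sets. The 2 genotypes did not overlap for 4 of the 8, namely Il1f9, Il18, Il33 and Il1r2, which compares with 20.3% of all probe sets.

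**Figure D1:**
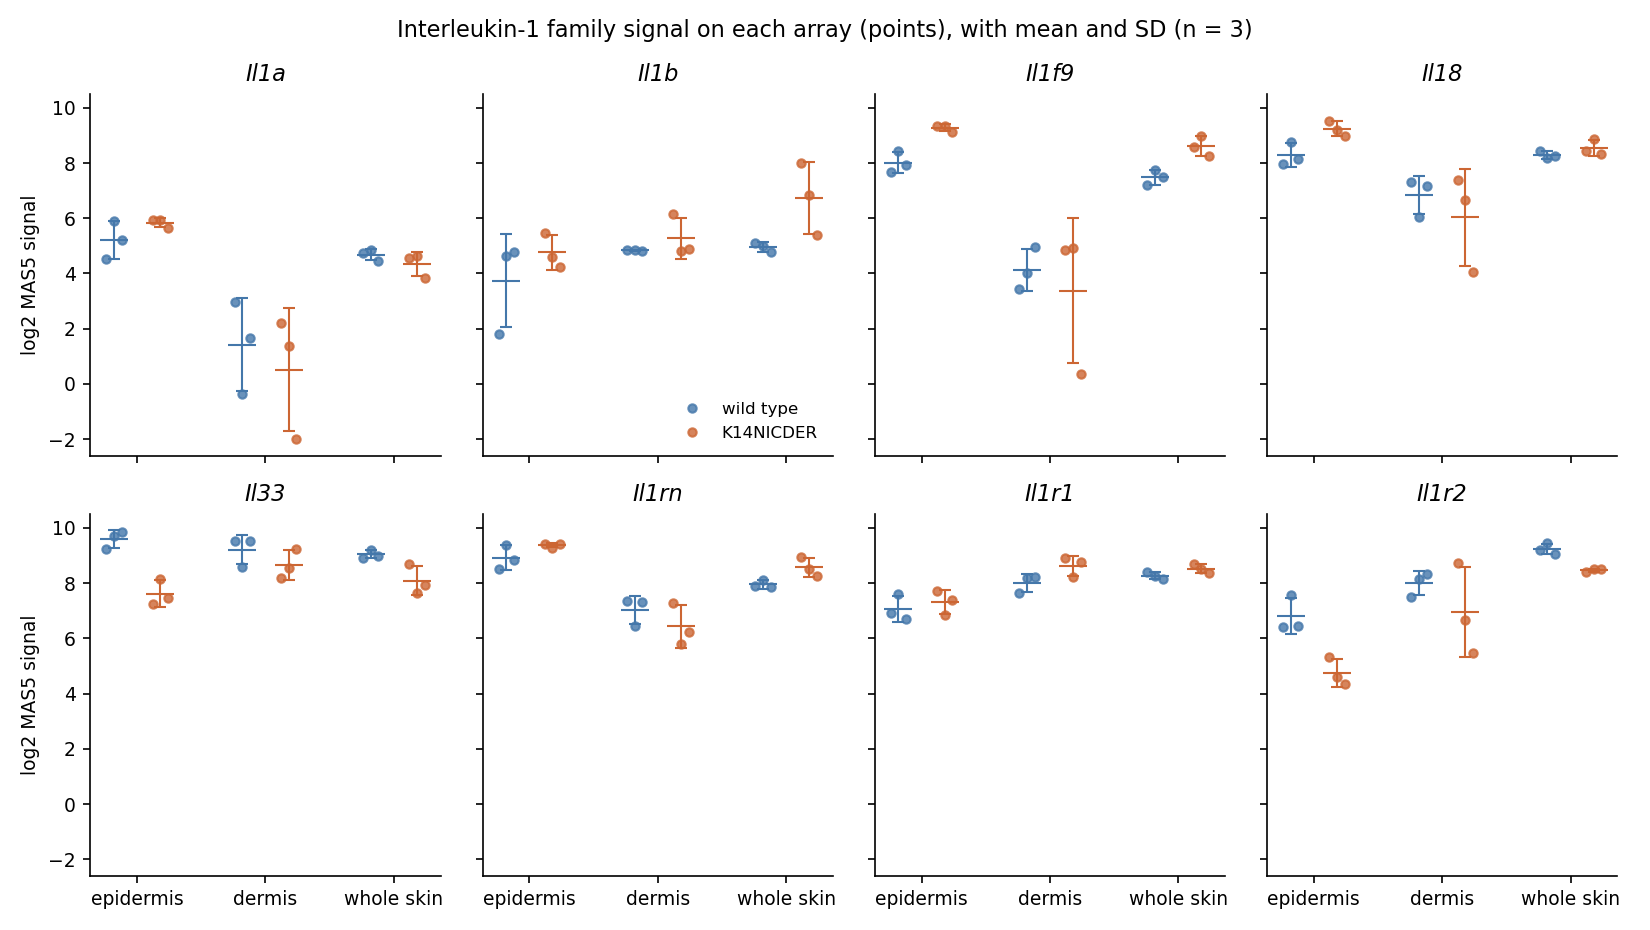
Log2 MAS5 signal of the lead probe set of each of the 8 genes on every array, by tissue and genotype; points are arrays and bars the mean and SD of 3 arrays. Il1f9 and Il33 separate the genotypes in epidermis in opposite directions, Il1r2 is lower in transgenic epidermis and whole skin, and 1 transgenic dermis array lies far below the others for Il1a, Il18 and Il1f9.

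Il33, an alarm cytokine kept in the nucleus, had log2 signals of 9.23, 9.70 and 9.86 on the wild-type epidermis arrays and 7.24, 8.16 and 7.45 on the transgenic ones. The highest transgenic array lay more than a log2 unit below the lowest wild-type array. The difference was −1.98 ± 0.30, a 3.95-fold decrease (limma adjusted p = 0.0066), or −1.68 relative to the median of all probe sets. The adjusted p was 0.0534 without wild-type replicate 3 and 0.0571 without transgenic replicate 1, with differences between −2.25 and −1.79 over all 6 omissions. In whole skin Il33 was 8.93, 9.21 and 8.99 in wild-type and 8.68, 7.64 and 7.95 in transgenic mice, again without overlap. That difference, −0.95 ± 0.22, did not pass (adjusted p = 0.0945), although it reached −1.25 with an adjusted p of 0.0126 when transgenic replicate 1 was left out.

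Il1f9, the keratinocyte cytokine IL-36 gamma, had signals of 7.69, 8.42 and 7.93 in wild-type epidermis and 9.35, 9.35 and 9.13 in transgenic epidermis. The transgenic arrays were all above the wild-type arrays and close together. The rise was 1.26 ± 0.26, or 2.40-fold (limma adjusted p = 0.0356), and 1.56 relative to the median of all probe sets. In whole skin the signals were 7.20, 7.76 and 7.49 against 8.60, 8.97 and 8.25, and the rise of 1.12 ± 0.19, or 2.18-fold, also passed (adjusted p = 0.0293). Both tissues thus showed higher Il1f9 on all 3 transgenic arrays than on any wild-type array. The call depended on single arrays. In epidermis it held only without wild-type replicate 2, and adjusted p reached 0.18 in the other 5 omissions. In whole skin it was lost without wild-type replicate 1 or 3 or transgenic replicate 1 or 2, with adjusted p up to 0.129 and differences between 0.94 and 1.30. With the spread estimated over all 18 arrays, adjusted p was 0.371 in epidermis and 1 in whole skin.

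Il1r2, the decoy receptor, had signals of 6.43, 7.58 and 6.45 in wild-type epidermis and 5.33, 4.60 and 4.33 in transgenic epidermis. The groups did not overlap, and all transgenic arrays were below all wild-type arrays by at least a log2 unit. The decrease was −2.06 ± 0.43, or 4.18-fold (limma adjusted p = 0.0397), and −1.77 relative to the median of all probe sets. Leaving out any single epidermis array ended this call, with adjusted p between 0.052 and 0.123 and differences between −2.35 and −1.69. In whole skin the signals were 9.20, 9.44 and 9.07 against 8.40, 8.50 and 8.50. The decrease there was smaller and tighter, −0.77 ± 0.11 or 1.70-fold (adjusted p = 0.0137), and was not called without wild-type replicate 1, transgenic replicate 1 or transgenic replicate 2 (adjusted p up to 0.0735). In the fit of all 18 arrays, which called 3.54% of probe sets in epidermis and 0.0711% in whole skin, the adjusted p of Il1r2 was 0.0346 and 1.

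Whole skin, in which the layers were not separated, gave calls for 2 of the 8 lead probe sets, Il1f9 higher and Il1r2 lower, where 0.946% of all probe sets were called, 0.562% higher and 0.384% lower. The median of the 8 differences was 0.26 against −0.02 for all probe sets. The genotypes did not overlap for 5 of the 8, Il1f9, Il1b and Il1rn being higher and Il33 and Il1r2 lower on the transgenic arrays, against 18.4% of all probe sets. In bulk tissue, fewer cells of a type and less RNA per cell cannot be told apart.

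**Figure D2:**
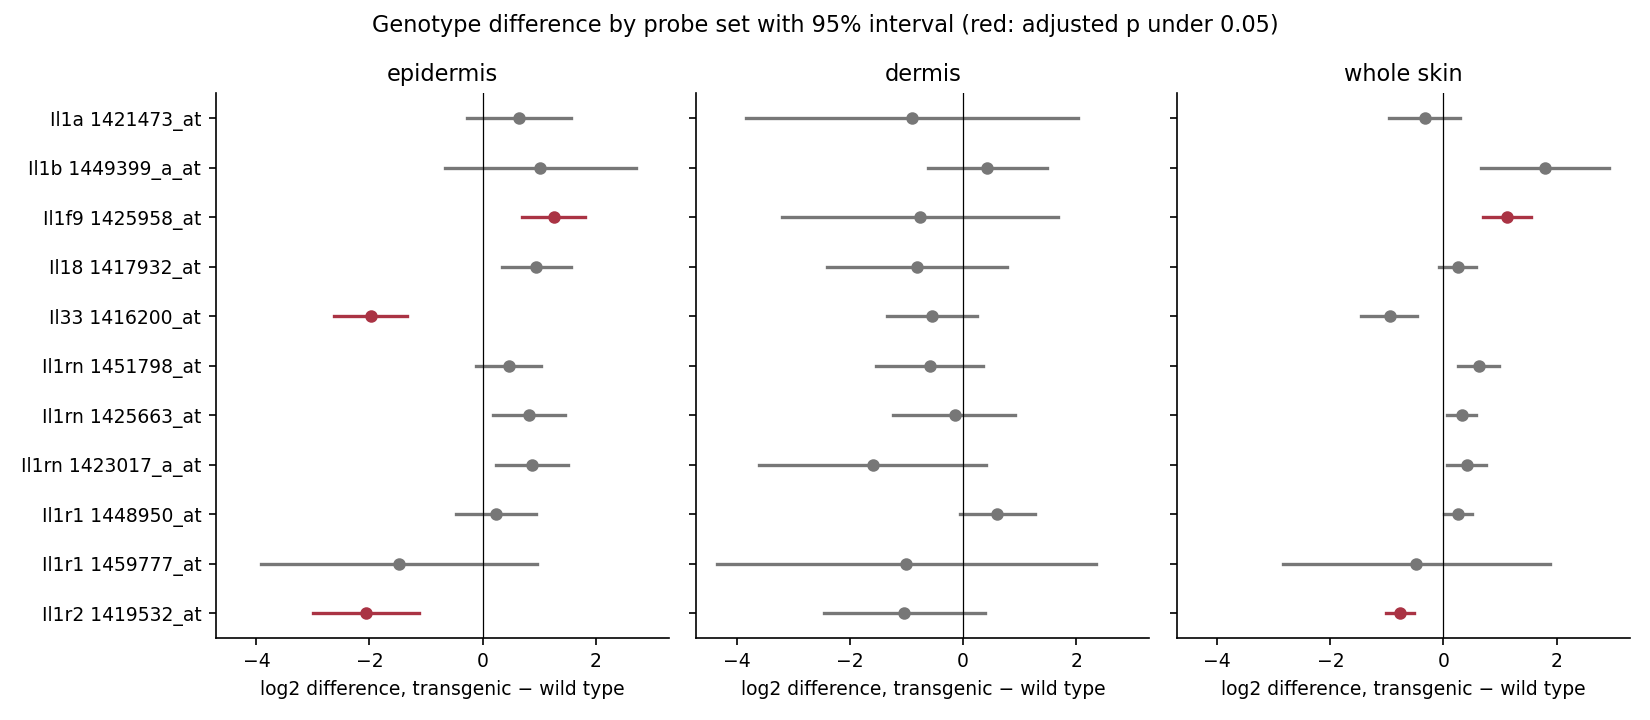
Log2 difference between transgenic and wild-type mice for each of the 11 probe sets by tissue, with 95% intervals; red points had an adjusted p under 0.05. Il33, Il1f9 and Il1r2 are called in epidermis, Il1f9 and Il1r2 in whole skin, and no probe set in dermis. The intervals are widest in dermis, except for Il1b and the lead probe set of Il1r1, whose intervals are widest in epidermis.

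Il18, a cytokine that matures through caspase-1, had signals of 7.95, 8.77 and 8.14 in wild-type and 9.53, 9.21 and 8.98 in transgenic epidermis. The transgenic arrays were all higher, but the difference of 0.95 ± 0.28 did not pass (limma adjusted p = 0.14). Among the 6 omissions of an array it passed only without wild-type replicate 2, the array nearest to the transgenic group (adjusted p = 0.0237). In whole skin the Il18 difference was 0.26 ± 0.15 (adjusted p = 0.521), with overlapping groups.

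Il1a, the IL-1 form that keratinocytes store, had signals of 4.52, 5.89 and 5.20 in wild-type and 5.95, 5.94 and 5.64 in transgenic epidermis, where the groups overlapped. Its difference was 0.64 ± 0.43 in epidermis (limma adjusted p = 0.485) and −0.33 ± 0.29 in whole skin (adjusted p = 0.692). The 95% interval in epidermis ran from −0.28 to 1.57, so a rise of the size seen for Il1f9 lay within it. Il1rn, the antagonist, was 8.52, 9.40 and 8.84 in wild-type and 9.43, 9.29 and 9.42 in transgenic epidermis at its lead probe set 1451798_at. Wild-type replicate 2 lay within the transgenic range, and the difference was 0.46 ± 0.27 (adjusted p = 0.426). The other Il1rn probe sets gave 0.82 ± 0.29 (1425663_at, adjusted p = 0.219) and 0.88 ± 0.29 (1423017_a_at, adjusted p = 0.194), both without overlap, and without wild-type replicate 2 their adjusted p was 0.0356 and 0.0263. In whole skin the lead probe set was 7.88, 8.13 and 7.85 against 8.94, 8.50 and 8.27, a difference of 0.62 ± 0.16 that did not pass (adjusted p = 0.137).

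Il1b, which in skin is made largely by myeloid cells, had signals of 5.10, 5.0 and 4.77 in wild-type whole skin and 7.99, 6.86 and 5.39 in transgenic whole skin. The wild-type arrays were close together and the transgenic arrays spread over more than 2 log2 units, with replicate 3 nearest to the wild type. The difference was 1.79 ± 0.51 (limma adjusted p = 0.161), and without transgenic replicate 3 it was 2.47 with an adjusted p of 0.00918. In epidermis Il1b was 1.79, 4.65 and 4.79 in wild-type and 5.46, 4.61 and 4.23 in transgenic mice. The low wild-type replicate 1 set that difference of 1.02 ± 0.78 (adjusted p = 0.539), which was 0.05 in the lowest of the 6 omissions. Il1r1, the signalling receptor, was 6.91, 7.59 and 6.71 against 7.71, 6.84 and 7.38 in epidermis, and 8.40, 8.26 and 8.15 against 8.68, 8.53 and 8.38 in whole skin, with overlap in both. Its differences were 0.24 ± 0.33 (adjusted p = 0.747) and 0.26 ± 0.11 (adjusted p = 0.377).

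Dermis lies next to the layer to which the transgene is directed, and its samples also held basal keratinocyte signal, given with the layers below. No member was called there (adjusted p = 1 for all 11 probe sets), in a comparison with 10 calls in limma, 0.0222% of all probe sets, while 1769 probe sets had an unadjusted p under 0.05. The median difference of the 8 lead probe sets was −0.68 against −0.06 for all, and the genotypes overlapped for all 8, where 8.8% of probe sets did not overlap. Il33 was 9.52, 8.60 and 9.52 in wild-type and 8.17, 8.55 and 9.25 in transgenic dermis, a difference of −0.55 ± 0.36. Il1r1 was 7.63, 8.17 and 8.24 against 8.90, 8.21 and 8.75, a difference of 0.60 ± 0.30, and Il1b was 4.86, 4.85 and 4.81 against 6.14, 4.81 and 4.88. In Il1b only transgenic replicate 1 stood apart. Il1r2 was 7.50, 8.16 and 8.32 against 8.72, 6.66 and 5.48, so the transgenic arrays lay on both sides of the wild-type range. The Il1rn differences were −0.59 ± 0.43 (1451798_at), −0.15 ± 0.49 (1425663_at) and −1.60 ± 0.91 (1423017_a_at).

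A single dermis array decided the direction for 3 members. Transgenic replicate 3 had an Il1f9 signal of 0.35, against 4.84 and 4.94 on the other transgenic arrays and 3.45, 4.01 and 4.96 on the wild-type arrays. Its Il18 signal was 4.04, against 7.38 and 6.68 in the transgenic and 7.33, 6.04 and 7.16 in the wild-type group. Il1a was −2.00 there, against 2.19 and 1.36 in the transgenic and 2.96, −0.38 and 1.67 in the wild-type group. For all 3 genes this array was the lowest of the 6. With it, the differences of Il1f9, Il18 and Il1a were −0.76, −0.81 and −0.90. Without it, they were 0.75, 0.18 and 0.36. The mean log2 signal of 7 markers of differentiated keratinocytes was 8.48 on the same array and between 9.42 and 10.36 on the other 5 dermis arrays, and Krt1, a keratin of the suprabasal epidermis, was 6.34 there and at least 9.87 on the others. Among the Il1rn probe sets, 1423017_a_at was 1.65 on transgenic replicate 3 and between 5.36 and 6.42 on the other 5 dermis arrays. Neither 1451798_at, at 6.22, nor 1425663_at, at 6.10, was lowest on that array. The part of keratinocyte content in the dermis differences of these genes was not tested.

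**Figure D3:**
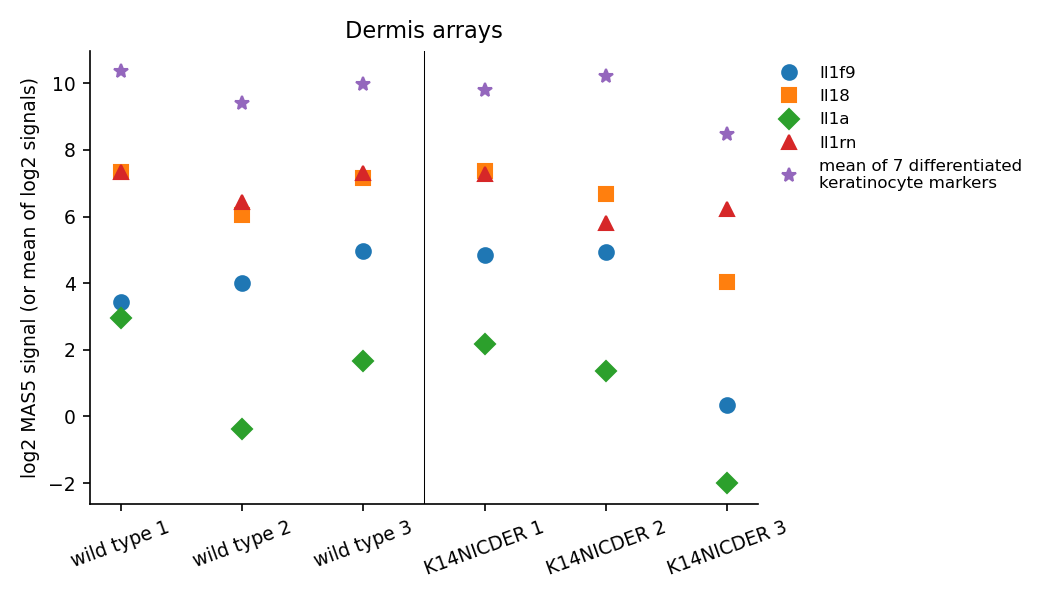
Log2 MAS5 signal of Il1f9, Il18, Il1a and Il1rn, and the mean log2 signal of 7 differentiated keratinocyte markers, on each of the 6 dermis arrays. Transgenic replicate 3 is the lowest array for Il1f9 (0.35), Il18 (4.04), Il1a (−2.00) and the marker mean (8.48).

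Whether the genotype effect differed between the separated layers was tested as an interaction over their 12 arrays. No member was called, where 0.0155% of probe sets (7) were called in limma and 3222 had an unadjusted p under 0.05. Il33 came nearest to the threshold, with a genotype effect higher in dermis than in epidermis by 1.43 ± 0.49 (adjusted p = 0.646), or 1.24 relative to the median of all probe sets, which was 0.19 and moved to −0.01 after quantile normalization. The interaction was −2.02 ± 1.19 for Il1f9 (adjusted p = 0.71) and 1.03 ± 0.85 for Il1r2 (adjusted p = 0.771). The epidermal changes were therefore not shown to differ from those in dermis.

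The members were also compared between the layers within each genotype. Il1a, Il1f9 and Il1rn were lower in dermis than in epidermis in both genotypes. Il18 was lower and Il1r1 and Il1r2 higher in dermis in the transgenic comparison, and none of these 3 passed in the wild type. In wild-type mice 3 of the 8 lead probe sets were lower in dermis and 0 higher, where 9.99% of all probe sets were called, 4.48% lower and 5.52% higher. In transgenic mice 4 were lower and 2 higher, where 12.3% were called, 6.14% lower and 6.18% higher. The medians of the 8 leads were −0.91 and −1.22, against −0.30 and −0.02 for all probe sets, and the wild-type median of all probe sets was −0.10 after quantile normalization.

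Il1f9 had the largest layer difference of the members. Its wild-type mean was 8.01 ± 0.37 in epidermis and 4.14 ± 0.76 in dermis (SD, n = 3), a difference of −3.87 ± 0.84 (limma adjusted p = 0.00812), or −3.57 relative to the median. The transgenic difference was −5.90 ± 0.84 (adjusted p = 0.000257), and both calls held in all 12 omissions of 1 array. The array with the low Il1f9 signal, transgenic dermis replicate 3, widens the second value, which was −4.39 at the smallest. Il1a had wild-type means of 5.20 ± 0.68 in epidermis and 1.42 ± 1.69 in dermis, lower by −3.79 ± 1.01 (adjusted p = 0.0263), or −3.48 relative to the median. Its wild-type call was lost without wild-type dermis replicate 2 or 3 or any 1 of the wild-type epidermis arrays, 5 of the 12 omissions (adjusted p up to 0.111), while the transgenic difference of −5.33 ± 1.01 (adjusted p = 0.00247) was called in all 12. The Il1a signal in dermis lay at the dim end of the scale, at most 2.96 on all 6 arrays. With 16 added to the linear signal before log2 they were −1.44 (adjusted p = 0.0041) and −2.00 (adjusted p = 0.000278), and those of Il1f9 were −3.00 and −4.27.

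Il1rn was lower in dermis by −1.89 ± 0.37 in the wild type (1451798_at, limma adjusted p = 0.00422), or −1.59 relative to the median, and by −2.94 ± 0.37 in the transgenic mice (adjusted p = 9.57e-05). Its probe set 1425663_at gave −2.15 and −3.13, both called, and 1423017_a_at gave −1.67 in the wild type, not called (adjusted p = 0.168), and −4.15 in the transgenic mice (adjusted p = 0.00159). The 3 Il1rn probe sets thus pointed the same way in both genotypes. The −4.15 includes transgenic dermis replicate 3, at 1.65 against 5.90 and 5.36 on the other transgenic dermis arrays. For Il18 the dermis difference was −1.44 ± 0.61 in the wild type, not called (adjusted p = 0.148), and −3.21 ± 0.61 in transgenic mice (adjusted p = 0.00244). The wild-type Il18 difference was called without transgenic dermis replicate 3 (adjusted p = 0.0143), an array that enters this comparison through the shared estimate of spread alone. In the transgenic comparison that array counted directly, with an Il18 signal of 4.04 against 7.38 and 6.68 on the other transgenic dermis arrays.

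The receptors had differences above 0. For Il1r1 the difference was 0.95 ± 0.32 in the wild type, not called (limma adjusted p = 0.075, and 0.0318 without wild-type epidermis replicate 2). It was 1.31 ± 0.32 in transgenic mice (adjusted p = 0.0135), a call lost without transgenic epidermis replicate 2 (adjusted p = 0.0765). For Il1r2 the differences were 1.17 ± 0.60 in the wild type (adjusted p = 0.234) and 2.20 ± 0.60 in transgenic mice (adjusted p = 0.0243). The transgenic Il1r2 call was lost without transgenic dermis replicate 1 or transgenic epidermis replicate 2 or 3, with adjusted p up to 0.0966. Il33 gave −0.39 ± 0.35 in the wild type (adjusted p = 0.512) and 1.04 ± 0.35 in transgenic mice (adjusted p = 0.0639), neither of which passed. The second passed without transgenic dermis replicate 1 or transgenic epidermis replicate 2, with adjusted p as low as 0.0227. Il1b gave 1.10 ± 0.69 and 0.51 ± 0.69, with adjusted p of 0.34 and 0.73.

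**Figure D4:**
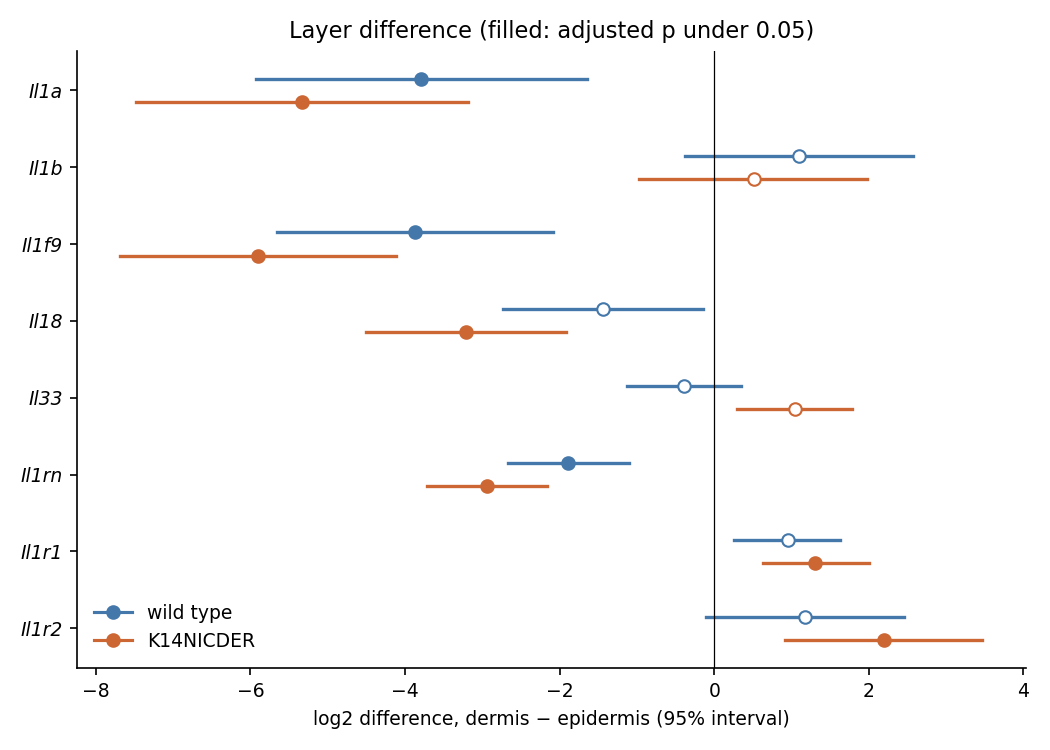
Log2 difference between dermis and epidermis for the lead probe set of each gene, in wild-type and in transgenic mice, with 95% intervals; filled points had an adjusted p under 0.05. Il1f9, Il1a and Il1rn lie to the left of 0 in both genotypes, and Il1r1 and Il1r2 lie to the right.

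The order of the group means differed by gene. For Il1f9 the means ran from 9.28 in transgenic epidermis through 8.61 in transgenic whole skin, then wild-type epidermis at 8.01 and wild-type whole skin at 7.48 to 4.14 and 3.38 in wild-type and transgenic dermis. The 2 dermis groups overlapped, as did wild-type epidermis with both whole skin groups. For Il1r2 the order was 9.24 in wild-type whole skin, 8.47 in transgenic whole skin, 7.99 in wild-type dermis, 6.95 in transgenic dermis, 6.82 in wild-type epidermis and 4.76 in transgenic epidermis. Transgenic dermis, from 5.48 to 8.72, overlapped for Il1r2 with the groups on either side of it, and transgenic epidermis, whose highest array was 5.33, overlapped with none. For Il33 wild-type epidermis was highest at 9.60, followed by wild-type dermis at 9.21, wild-type whole skin at 9.04, transgenic dermis at 8.66, transgenic whole skin at 8.09 and transgenic epidermis at 7.62, and each group overlapped with the next.

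For the other 5 genes the group means of the lead probe sets can be given more briefly. Il18 ran from 9.24 in transgenic epidermis to 6.03 in transgenic dermis, Il1a from 5.84 to 0.51 and Il1rn from 9.38 to 6.44 between the same groups. Transgenic epidermis was thus the highest and transgenic dermis the lowest group for all 3, as for Il1f9. The dermis groups overlapped for each of these genes. With transgenic dermis replicate 3 left out, wild-type dermis was lower than transgenic dermis for Il18, Il1a and Il1f9. Il1r1 was highest in transgenic dermis, at 8.62, and lowest in wild-type epidermis, at 7.07. Il1b was highest in transgenic whole skin, at 6.75, and lowest in wild-type epidermis, at 3.74.

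Other ligands of the family moved with Il1f9 in part. Of 5 further ligand and binding-protein genes measured, 1 was called higher and 0 lower in epidermis and in whole skin, Il1f8 in both, the gene of IL-36 beta. The shares of all probe sets called higher were 0.651% and 0.562%. Il1f8 was 6.54, 7.18 and 5.94 in wild-type and 8.07, 8.24 and 8.11 in transgenic epidermis, without overlap, a rise of 1.59 ± 0.32 (limma adjusted p = 0.0344). In whole skin Il1f8 was 5.87, 5.83 and 5.50 against 7.18, 7.66 and 6.64, a rise of 1.43 ± 0.24 (adjusted p = 0.0269). Both Il1f8 calls were lost in 5 of 6 omissions of an array, with adjusted p up to 0.174 in epidermis and 0.118 in whole skin. The median of the 5 genes was 1.02 in epidermis and 0.59 in whole skin. Between the layers, 4 of the 5 were lower in wild-type dermis than in wild-type epidermis, where 4.48% of all probe sets were called lower. They were Il1f6 (−2.52 ± 0.44, adjusted p = 0.0019), Il1f8 (−2.42 ± 0.49, adjusted p = 0.00514), Il1f10 (−3.67 ± 0.94, adjusted p = 0.021) and Il1f5 (−1.74 ± 0.47, adjusted p = 0.0275). In transgenic mice 3 of the 5 were lower in dermis, namely Il1f8, Il1f5 and Il1f6, where 6.14% of all probe sets were called lower.

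Receptors, signalling and processing genes gave few calls. None of 7 further receptor genes, Il1rap and Il1rl2 among them, and none of 15 signalling genes was called in limma in any of the 3 genotype comparisons. At an unadjusted p under 0.05 there were 0, 0 and 1 receptor genes in epidermis, dermis and whole skin, and 3, 0 and 1 signalling genes. Over all probe sets the share at that level was 15.2%, 3.93% and 12.6% in the 3 tissues. Of 11 measured genes of cytokine processing and the inflammasome, 1 was higher in epidermis, Gsdma, which encodes a pore-forming gasdermin of the skin (1.33 ± 0.29, adjusted p = 0.0457). The share of all probe sets called higher there was 0.651%. The Gsdma call was lost in 5 of 6 omissions of an array (adjusted p up to 0.239). None of the 11 was called in dermis or whole skin, where 1 and 4 had an unadjusted p under 0.05. Of 7 genes that respond to IL-33 or IL-18, 0 were called in the genotype comparisons, with 1, 0 and 0 at an unadjusted p under 0.05.

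Genes known to be induced by IL-1 were read as a list of 20, all measured. Of these, 4 rose in whole skin, 3 in epidermis and 1 in dermis, and 0 fell in any tissue, where the share of all probe sets called higher was 0.562%, 0.651% and 0.0222%. These genes respond to several other signals as well. The list was chosen with earlier results of these data known, so its counts and medians are a description and not a test. In epidermis the 3 were Mmp13, a collagenase (5.84 ± 0.67, limma adjusted p = 0.00116), Ccl20, a chemokine (3.70 ± 0.61, adjusted p = 0.0121), and Lcn2, an iron-sequestering protein (4.30 ± 0.94, adjusted p = 0.0494). Mmp13 was 1.15, 1.95 and 2.98 in wild-type and 9.22, 7.82 and 6.56 in transgenic epidermis, and its call held in all 6 omissions, whereas Ccl20 lost its call in 3 and Lcn2 in 4. In dermis Saa3, an acute-phase protein, was 5.13, 3.65 and 1.99 against 9.63, 11.21 and 11.38, a rise of 7.15 ± 0.70 (adjusted p = 0.00432) that was not called without wild-type replicate 2 (adjusted p = 0.054) or transgenic replicate 2 (adjusted p = 0.0858). The medians of the 20 genes were 0.75, 0.92 and 0.70 in epidermis, dermis and whole skin, against −0.30, −0.06 and −0.02 for all probe sets.

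In whole skin the 4 response genes were Mmp3, a matrix protease, Saa3, Lcn2 (3.71 ± 0.62, limma adjusted p = 0.0281) and Cxcl2, a neutrophil chemokine. Mmp3 was 7.93, 8.01 and 7.88 in wild-type and 10.11, 9.85 and 9.11 in transgenic whole skin, a rise of 1.75 ± 0.21 (limma adjusted p = 0.00615) that held in all 6 omissions. Saa3 was 3.06, 2.35 and 2.72 against 10.61, 9.52 and 5.66 (5.89 ± 0.98, adjusted p = 0.0278). Cxcl2 was 2.11, 1.03 and −1.42 against 8.07, 7.25 and 3.90 (5.83 ± 1.11, adjusted p = 0.0454). Transgenic replicate 3 was the lowest of the transgenic arrays for Il1b and for all 4 genes. The calls of Saa3 and Cxcl2 were each lost in 5 of 6 omissions and that of Lcn2 in 4, with adjusted p up to 0.189.

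**Figure D5:**
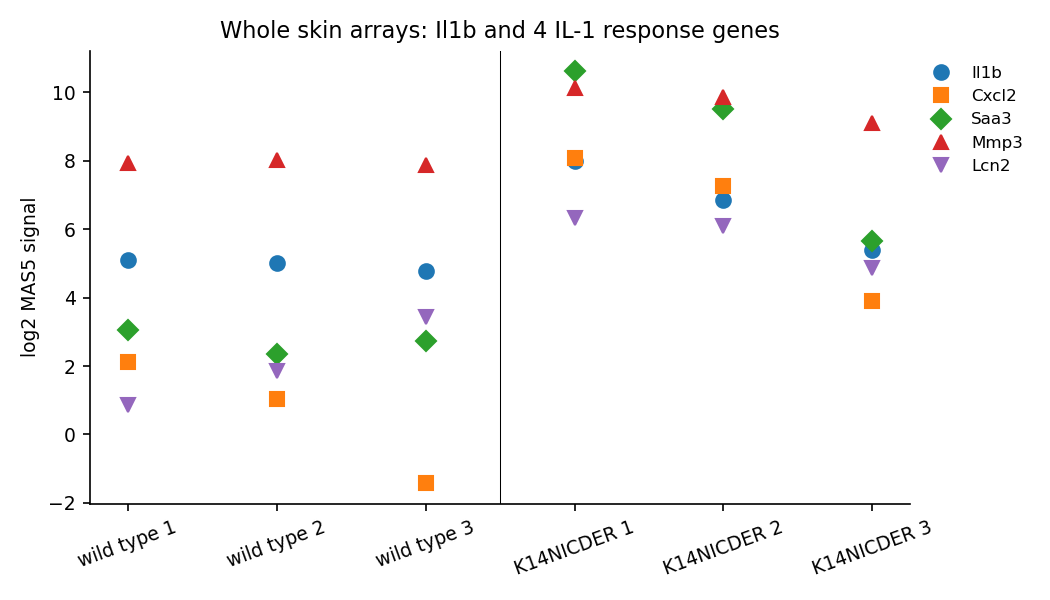
Log2 MAS5 signal of Il1b and of the IL-1 response genes Cxcl2, Saa3, Mmp3 and Lcn2 on each of the 6 whole skin arrays. Transgenic replicate 3 is the lowest transgenic array for all 5 genes, at 5.39 for Il1b, and the 3 transgenic arrays lie above the 3 wild-type arrays for each gene.

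Markers of other cell types moved beside these results. The shares of all probe sets called higher and lower were 0.651% and 0.42% in epidermis and 0.562% and 0.384% in whole skin. Of 11 measured neutrophil markers, 2 were called higher in epidermis and in whole skin, S100a8 and S100a9, which keratinocytes also make. The log2 of the summed signal of the 11 ranged from 8.34 to 9.57 in wild-type and from 11.52 to 13.31 in transgenic epidermis. In whole skin the ranges were 7.73 to 8.45 and 9.94 to 12.09. Without S100a8 and S100a9 the other 9 summed to between 6.85 and 8.28 in wild-type and 7.91 and 9.31 in transgenic epidermis, and to between 6.10 and 6.54 and between 7.48 and 8.48 in whole skin. Of 10 macrophage and monocyte markers 1 was called higher in epidermis, Ctss, and the log2 of their summed signal ranged from 10.68 to 11.73 in wild-type and from 11.84 to 12.35 in transgenic epidermis. Of 6 basal keratinocyte markers 2 were lower in epidermis, Krt15 (−3.66 ± 0.35, limma adjusted p = 0.000288) and Col17a1 (−1.19 ± 0.25, adjusted p = 0.0425), and of 7 differentiated keratinocyte markers 1 was higher, Flg (2.90 ± 0.23, adjusted p = 0.000181). In whole skin 2 differentiated keratinocyte markers were higher, Flg (2.48 ± 0.21, adjusted p = 0.00115) and Ivl (0.91 ± 0.14, adjusted p = 0.0177), and 1 basal marker was lower, Col17a1 (−0.70 ± 0.09, adjusted p = 0.00798). The log2 of the summed differentiated keratinocyte signal there was 13.63 to 13.91 in wild-type and 13.96 to 14.28 in transgenic mice, and did not overlap. In epidermis it was 14.66 to 15.12 in wild-type and 14.77 to 15.07 in transgenic mice, with overlap. The summed basal keratinocyte signal was 13.93 to 14.28 against 13.39 to 13.44 in epidermis, without overlap. In whole skin the basal sum was 13.35 to 13.63 against 13.38 to 13.43, with overlap. The T cell and innate lymphoid list had 1 of 8 markers called lower in epidermis. The Langerhans and dendritic cell list had 1 of 7 called higher in whole skin. None of 8 mast cell, 7 fibroblast and 6 endothelial markers was called in either tissue. No marker of any list was called in dermis. The part of these shifts in the changes of Il33, Il1r2, Il1f9 and Il1b was not tested.

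The layers themselves can be read from the same markers. In wild-type mice the log2 of the summed signal of 7 fibroblast markers was 11.98 to 13.15 in epidermis and 13.86 to 14.29 in dermis, and that of 7 differentiated keratinocyte markers was 14.66 to 15.12 and 13.29 to 14.08. The summed basal keratinocyte signal was 13.93 to 14.28 in wild-type epidermis and 13.51 to 13.79 in wild-type dermis. In transgenic mice it was 13.39 to 13.44 in epidermis and 13.15 to 13.27 in dermis. Each layer thus held signal of the other. On the same scale, fibroblast markers were 13.14 to 13.61 in transgenic epidermis.

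The patterns of the members over all 18 arrays are described here by Pearson's r across arrays that share tissue and genotype structure, with no test of grouping. Il1a, Il18, Il1f9 and Il1rn correlated with each other at between 0.86 and 0.96. Il1r1 and Il1r2 correlated with each other at 0.60, with Il1b at 0.63 and 0.38, and with those 4 genes at between −0.52 and −0.02, and the highest r of Il33 with any member was 0.27. Each member was compared with 9096 or 9097 genes whose mean signal was at or above the median of all genes. Those most like Il18 were Dsc1 (r = 0.99), Fam89a and Asprv1 (both 0.98), and those most like Il1f9 were Calm4 (0.98), Tgm1 (0.97) and Acpp (0.96). Tgm1, a transglutaminase, and Dsc1, a desmosomal cadherin, belong to the upper epidermis. Il1a was most like Sdr9c7, Map2 and Dsc1 (each 0.97), and Il1rn was most like Tmprss4 (0.97), Wfdc5 and Ly6d (both 0.96).

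The other members had other neighbours. Il1r2 was most like Cdh13 (r = 0.97), Specc1l (0.96) and Vwa5a (0.95), and Il1r1 was most like Ampd3 (0.96), Pros1 and Fndc3b (both 0.94). Il33 was most like Ripply3 (0.83), Ccdc171 and Slc2a12 (both 0.82). Il1b was most like Pla1a (0.85), Larp1 and Hnrnpll (both 0.82). Among the genes compared, the highest r of Il33 and of Il1b was therefore lower than that of each of the other 6 members.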

How the data were processed

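Expression was measured on 18 Affymetrix arrays from 3 tissues and 2 genotypes. Per the labels' protocols, skin was kept in RNAlater, RNA was extracted with the RNeasy Mini kit and amplified with WT Ovation Pico, and targets carried biotin. The submitters' processing notes name MAS5 (version not given in the sources used here). Signals of 45037 probe sets, deposited in 1 table, were taken as log2 values made by the authors: turned back to the linear scale, the mean of each array without its highest and lowest 2% was between 98.89 and 99.50. The log2 values ran from −7.52 to 14.42, and 0 of 153 array pairs were identical.

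The deposited values entered limma 3.58.1 (R 4.3.3) unchanged and unfiltered, with eBayes and a trend of the spread with mean signal. Genotype comparisons used the 6 arrays of a tissue, and layer and interaction comparisons used 12. Adjusted p-values are Benjamini-Hochberg over all probe sets, with a threshold of 0.05. The platform annotation gave 1 symbol for 34945, several for 932 and none for 9160. A RefSeq table held 34741 of the 34945 and changed 0 symbols. Each member's probe sets are named whatever their result. Up to 4 called genes per pathway list and comparison are named, and the 3 genes of highest Pearson r with each lead probe set. Each pathway or marker gene was read from the brightest of its probe sets with 1 symbol. Values of single arrays are shown where 1 array decides a result. The members, lists and tests were chosen with earlier results of these data known. The fit was tested on simulated data for 45037 probe sets in 3 rounds, with independent normal noise on each array. The 200 changed probe sets all had a mean above the median, so the recovered shares do not cover dimmer ones such as that of Il1a. Of calls in epidermis 1.56% were false, and 43.3% of log2 changes of 2 were recovered. These shares were 4.69% and 40.7% in dermis, 5.79% and 89.3% in whole skin, 7.54% and 21.3% for the interaction, 7.29% and 49.3% for the wild-type layers, and 7.96% and 52.7% for the transgenic layers. Log2 changes of 1 were recovered in 59.3% of cases in whole skin, 0.667% in both epidermis and dermis, 0% for the interaction, 6% for the wild-type layers and 7.33% for the transgenic layers. The alternatives tried were a fit of all 18 arrays, a replicate block, a filter on dim probe sets, adding 16 before log2, quantile and 75th percentile normalization, the mean of a gene's probe sets, array weights and leaving out each array. The number of arrays limits the precision.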

Additional observations from a re-analysis of the deposited data

How the results depend on the processing

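Over the 8 lead probe sets in the 3 genotype comparisons, 178 results under the alternatives other than omissions kept their direction and side of the threshold, 10 lost the call, 0 gained it and 4 reversed. With 1 array left out, 118 kept both, 20 lost the call, 3 gained it and 3 reversed. Il1r1 reversed with the mean of its 2 probe sets, 1 of them dim, to −0.62, −0.20 and −0.11 (epidermis, dermis, whole skin), and Il1f9 in dermis reversed to 0.31 with array weights. Leaving out 1 dermis array moved Il1a between −1.80 and 0.36, Il18 between −1.49 and 0.18, and Il1f9 between −1.54 and 0.75. Il1f9 in epidermis was not called with quantile normalization (adjusted p = 0.0558), nor was Il1r2 there with quantile normalization (0.116), a common 75th percentile (0.0543) or 16 added (0.0789), and Il1f9 in whole skin was not called with 16 added (0.0595).

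The labels do not say that equal replicate numbers share an animal, and the correlations of deviations of same-numbered arrays within a tissue were between −0.33 and 0.07. Across dermis and epidermis they were 0.40, 0.16 and 0.00 in transgenic and 0.05, −0.04 and 0.01 in wild-type mice. Not every pair was above 0.1 in any of these, so the numbers were not taken to pair the samples. With the replicate block 288 (epidermis), 8 (dermis) and 297 (whole skin) probe sets were called, Il1f9 (adjusted p = 0.105) and Il1r2 (0.0792) were not called in epidermis, and the interaction gave 1 call. A block by tissue and number could not be fitted to the layer comparisons. A block of the number shared by both tissues, added after the data were seen, gave 3691 calls for the wild-type and 4769 for the transgenic layers.

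The counts of called probe sets moved as follows, and the causes were not tested. In epidermis the count was 482, 1595 with all 18 arrays, 1525 with array weights, and between 97 and 2071 with 1 array left out. Of these calls 60.8% were higher, and 71.4% with a common 75th percentile. In dermis it was 10, 54 with all 18 arrays, 6 with 16 added, 514 with array weights, and between 2 and 38 with 1 array left out. In whole skin it was 426, 32 with all 18 arrays, 276 with 16 added, 226 with the mean of a gene's probe sets, and between 123 and 433 with 1 left out. The interaction gave 7, 42 with all 18 arrays, 276 with array weights, 0 with the filter on dim probe sets or either normalization, and between 0 and 49 with 1 left out. The wild-type layers gave 4501, 8164 with all 18 arrays, 2345 with the mean per gene, 9058 with array weights, and between 2082 and 5966 with 1 left out. The transgenic layers gave 5548, 8657, 2912, 11403 and between 3464 and 7049 under the same settings.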
